A study of Mus musculus with 16 samples.

Results

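Lyve1, Stab1, Stab2, Mrc1 and Cd44 encode cell surface receptors that bind or take up hyaluronan, modified proteins and other ligands, and each is known from lymphatic vessels or from the cells that travel in them. The genes were taken by symbol from the deposited expression table, where 5 of 5 were found among 15895 genes, and they are described here across 4 groups of cardiac lymphatic endothelial cells. RNA was sequenced from cells of CD1 mouse hearts that were sorted as CD45-, CD31+ and podoplanin+. The groups were MI P56 (permanent ligation of a coronary artery in adult males at postnatal day 56), sham P56 (males of that age operated on without ligation), MI P1 (infarction at postnatal day 1) and sham P1 (the sham operation at postnatal day 1). All hearts were taken 3 days after surgery. No group carried a transgene or a mutation per the labels, and the 4 groups shared the Liberase digestion, the sort and the library kit. Neonatal ventricles were pooled in groups of 6, cut up and digested under agitation, whereas adult hearts were digested by perfusion through the aorta. A difference between P56 and P1 therefore cannot be told apart from a difference in pooling, digestion or sex. The labels do not say whether the libraries of a group came from separate animals or pools, so each p-value measures the spread between libraries, which may be technical.

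Hyaluronan is a long sugar polymer of the extracellular matrix that leaves tissues largely through lymph. LYVE1, the lymphatic vessel hyaluronan receptor, sits on the endothelium of initial lymphatics, binds hyaluronan in the coat of dendritic cells and macrophages, and is used as a marker of these vessels in the heart and elsewhere. CD44 is the widely expressed hyaluronan receptor of leukocytes, fibroblasts and activated endothelium. Stabilin-2 clears hyaluronan in the sinusoids of liver, spleen and lymph nodes. Its relative stabilin-1 takes up modified lipoproteins and the matrix protein SPARC. MRC1, the macrophage mannose receptor, takes up mannosylated glycoproteins and collagen and is also present on lymphatic endothelium.

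All 5 genes are protein coding, and the coordinates below are those of GRCm38. Lyve1 lies on the minus strand of chromosome 7 at positions 110850607 to 110863239, Stab1 on the minus strand of chromosome 14 at 31139013 to 31168641, and Stab2 on the minus strand of chromosome 10 at 86841198 to 87008025. Mrc1 is on the plus strand of chromosome 2 at 14229392 to 14332057, and Cd44 on the minus strand of the same chromosome at 102811141 to 102901665. Exons of Stab1 share 112 bases with those of Nt5dc2 on the opposite strand, and exons of Stab2 share 141 bases with the antisense gene Gm16268. Whether the counting used strand is not given in the sources used here, so reads in those stretches cannot be assigned to either partner.

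The promoters of Cd44 and Mrc1 are shown because these were the members that passed the test in any comparison. The sequences are the 250 bases before the RefSeq start (GRCm38.p6), 5′ to 3′ on the strand of the gene, at chr2:102901666-102901915 for Cd44 and chr2:14229164-14229413 for Mrc1. Capitals mark the matches of the motifs searched on both strands, a GATA motif (AGATAA) in Cd44 and a GC box (GGGCGG, here as its reverse complement CCGCCC) in Mrc1.
Cd44: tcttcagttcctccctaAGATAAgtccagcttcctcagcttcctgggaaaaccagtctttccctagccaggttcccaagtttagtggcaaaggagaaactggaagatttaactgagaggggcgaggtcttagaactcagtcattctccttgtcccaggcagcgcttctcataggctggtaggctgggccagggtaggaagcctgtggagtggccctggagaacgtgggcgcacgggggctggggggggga
Mrc1: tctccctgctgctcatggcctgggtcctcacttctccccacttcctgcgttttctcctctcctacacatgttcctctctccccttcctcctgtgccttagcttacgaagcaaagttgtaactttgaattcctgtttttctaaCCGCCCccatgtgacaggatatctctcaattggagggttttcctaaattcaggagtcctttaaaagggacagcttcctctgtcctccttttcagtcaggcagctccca
The GATA motif began 233 bases before the start of Cd44 and was held by 9.99% of the 32851 promoters of that length in the RefSeq table. The GC box began 108 bases before the start of Mrc1 and was held by 32.7% of them. An AP-1 motif (TGANTCA, in 6.75% of all promoters), a TATA box (TATAAA, 12.4%) and a RUNX motif (TGTGGT, 14.0%) had no match in either window. Promoter sequences were matched for 4 of the 5 members.

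Values are the deposited ones, which are CPM (reads divided by library size) with the library size scaled by TMM (trimmed mean of M-values, a scaling that sets most genes to the same level across libraries). The 16 libraries held 17103319 to 43837520 reads on listed genes. In 3 of them (sham P1 libraries 1 and 2, MI P56 library 5) only 7746 to 9451 genes had a read, against 14121 to 15821 in the other 13. The gene Uqcrc1 held 18.1% to 99.8% of reads in those 3 and 0.0930% to 4.11% in 12 of the others, and 3 reads were worth 0.359 to 12.9 there and at most 0.109 in the 13. The exception was sham P1 library 5, which is used in the tests and had 47.3% of its reads on Uqcrc1 and 6709566 reads outside Uqcrc1 and mitochondrial rRNA, against 9720620 to 12918569 in the other 12. The tests below use these 13 libraries (3 MI P56, 4 sham P56, 4 MI P1 and 2 sham P1), and the fit of all 16 stands beside each member. That fit is off centre, with medians over all genes of -0.17 for MI P56 against sham P56, 0.39 for MI P1 against sham P1, -0.50 for the difference between these responses, 0.36 for age in sham and -0.18 for age after MI (log2). Lymphatic identity genes were present in all groups: Prox1, the transcription factor of lymphatic fate, had 139 to 262 in MI P56, 169 to 330 in sham P56, 224 to 516 in MI P1 and 303 to 439 in sham P1. Flt4 had 277 to 571, 259 to 752, 338 to 431 and 277 to 436 in these groups. Values of Pdpn, which encodes the sorted antigen podoplanin, were lower, at 8.79 to 19.5, 10.8 to 25.0, 11.9 to 21.3 and 16.7 to 18.8. Pecam1, which encodes the sorted antigen CD31, had 59.9 to 130 in MI P56, 118 to 164 in sham P56, 101 to 132 in MI P1 and 104 to 130 in sham P1. Ptprc, which encodes CD45, averaged 3.21 ± 2.11 in MI P56, 0.939 ± 0.416 in sham P56, 1.61 ± 1.25 in MI P1 and 0.307 ± 0.281 in sham P1 (SD), and did not pass between MI P56 and sham P56 (log2 difference 1.01 ± 0.43, adjusted p = 0.226 by limma).

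Lyve1 was the most abundant member per length. Its value per kb of exonic sequence (2919 bases in the GENCODE M21 annotation) had a median of 166 over the 13 libraries and ranked first among the 5 genes in 13 of 13. Mrc1 (6371 bases) had a median of 8.06 per kb and was second in 9 libraries, and Stab1 (10288 bases) had a median of 7.17 per kb and was second in the other 4. Stab2 (8757 bases) had a median of 0.704 per kb and was last in 9 libraries, whereas Cd44 (6776 bases) had a median of 1.38 per kb and was last in 4. These 4 were the sham P56 libraries, so the order of Cd44 and Stab2 per length was the opposite in sham P56 and in the other groups.

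**Figure D1:**
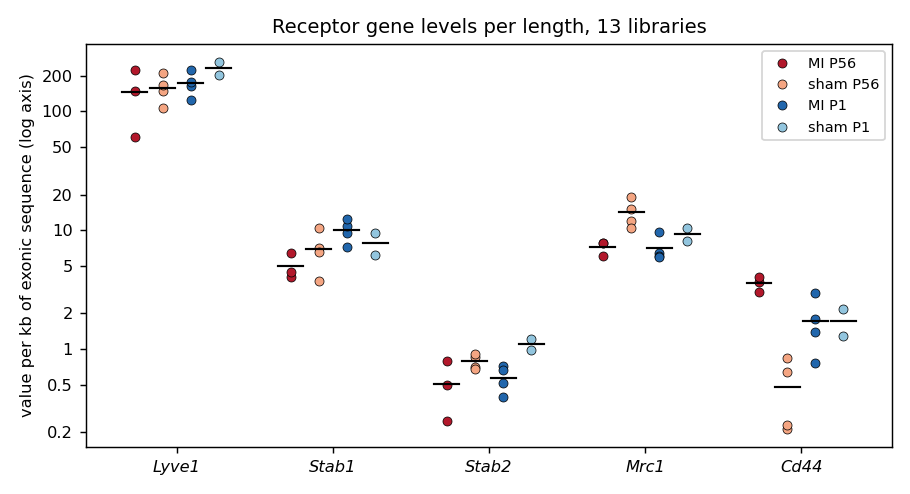
Value per kb of exonic sequence (log axis) of the 5 receptor genes, 1 point per library of the 13 libraries, with the mean of each group as a bar. Lyve1 is above the others in all libraries, and Cd44 in sham P56 is below 1 per kb while all MI P56 libraries are above 3 per kb.

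Limma tests, two-sided, were made for MI against sham at each age, for the difference between both responses, and for age (P56 against P1) within sham and within MI, with Benjamini-Hochberg adjustment over 13033 genes. Among hearts infarcted at P56, 2 of the 5 members passed an adjusted p of 0.05: Cd44 was higher and Mrc1 was lower than in sham P56, where 3.42% of all genes tested passed (2.36% higher, 1.07% lower). With infarction at P1, 0 of 5 passed, as did 0% of all genes. There 485 of the 13033 genes, Stab2 among them, had an unadjusted p under 0.05, fewer than the 1 in 20 that chance alone gives. For that comparison edgeR called 0% of genes and DESeq2 0.0537% (7 genes, none of them a member). The response to infarction differed between ages for 1 of 5, Cd44, and for 0.483% of genes (0.322% in its direction). In sham hearts 1 of 5, Cd44, was lower at P56 than at P1, where 13.2% of genes passed (7.28% lower). After MI 0 of 5 differed between P56 and P1, where 5.35% of genes passed. In the fit of all 16 libraries 0 of 5 passed in any comparison, where 0.174% of 13243 genes passed for MI P56 against sham P56, 0% for MI P1 against sham P1, 0.00755% for the difference, 3.91% for age in sham and 0.106% for age after MI.

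**Figure D2:**
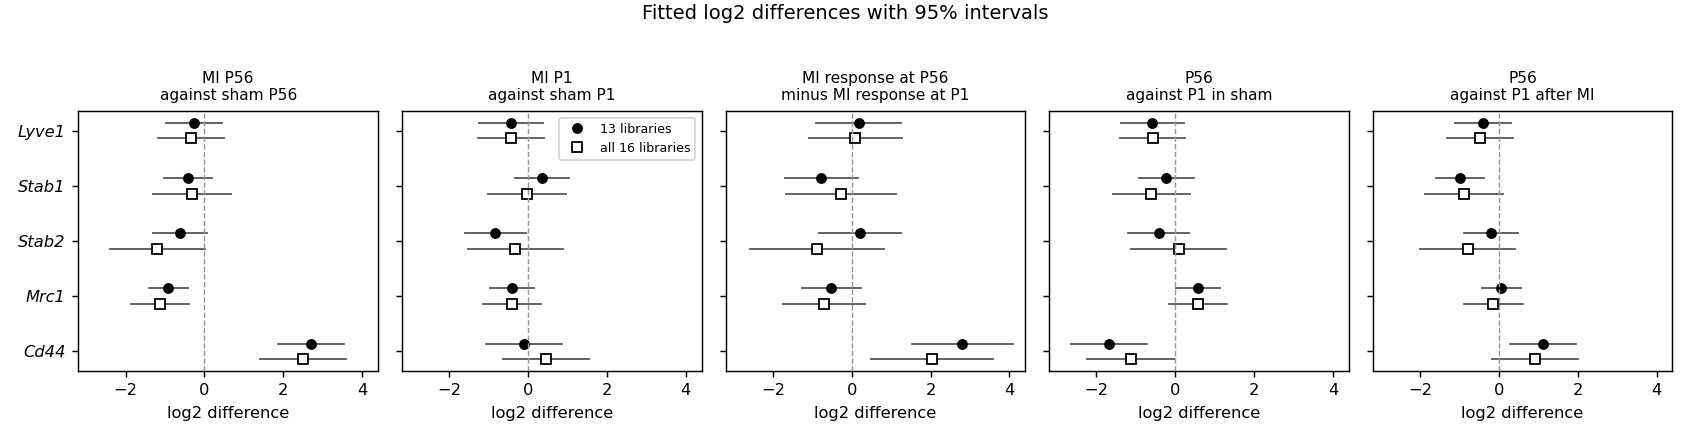
Fitted log2 differences (horizontal axes) with 95% intervals for the 5 genes in the 5 comparisons, from 13 libraries (filled circles) and from all 16 (open squares). The interval of Cd44 lies above 0 in the MI P56 panel in both fits and spans 0 in the MI P1 panel.

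Cd44 had values of 20.7, 24.8 and 27.4 in the MI P56 libraries, against 1.46, 1.55, 4.32 and 5.68 in sham P56. Every MI P56 library lay above every sham P56 library, and MI P56 library 5, which the tests leave out, had 12.9 from 3 reads. Fitted on the log2 scale, MI P56 exceeded sham P56 by 2.70 ± 0.40 (SE), with a 95% interval of 1.86 to 3.55 and an adjusted p of 0.000799 by limma. The fit of all 16 libraries gave 2.49 ± 0.53 with an adjusted p of 0.0526, which misses the threshold. Leaving out any 1 of the 13 libraries kept the call, at 2.48 to 2.96 with adjusted p values of 0.000504 to 0.00976, and edgeR on the recovered reads gave 2.90 with an adjusted p of 0.0045, where 2.62% of genes passed.

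At P1 Cd44 had 20.0, 12.3, 9.37 and 5.18 in MI, against 8.84 and 14.7 in the sham libraries tested and 5.62 and 4.04 in the sham libraries left out. The groups overlapped, and the spread within MI P1 exceeded the distance between the group means of 11.7 and 11.8. MI P1 against sham P1 gave a log2 difference of -0.11 with a 95% interval of -1.06 to 0.85 (adjusted p = 1), and 0.45 with an adjusted p of 0.666 in all 16 libraries, so its sign depends on the libraries used. The response at P56 exceeded that at P1 by 2.81 ± 0.61 log2 units (95% interval 1.53 to 4.08, adjusted p = 0.047 by limma). That call was lost in all 16 libraries (2.04, adjusted p = 0.509), with edgeR (2.95, adjusted p = 0.081, 0.338% of genes called) and on leaving out any 1 of 10 of the 13 libraries, with adjusted p values up to 0.411 without sham P1 library 5. The exceptions were sham P56 libraries 2, 3 and 5. DESeq2 on the recovered reads of the 13 libraries also called Cd44 for this difference, where it called 2.49% of genes.

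In the sham libraries tested, Cd44 was called lower at P56 than at P1. The sham P56 values above lay below both sham P1 libraries tested, with a log2 difference of -1.69 ± 0.46 (95% interval -2.64 to -0.73, adjusted p = 0.0181 by limma). Only 2 sham P1 libraries support it: without library 5 the adjusted p was 0.254, without library 3 it was 0.0523, and all 16 libraries gave -1.13 with an adjusted p of 0.203. The sham P1 libraries left out had 5.62 from 47 reads and 4.04 from 1 read, within the range of sham P56. After MI the P56 libraries all lay above the highest MI P1 library, with 20.7 as the lowest MI P56 value and 20.0 as the highest MI P1 value. That difference of 1.12 ± 0.40 (95% interval 0.28 to 1.96) did not pass (adjusted p = 0.122; 0.91 and 0.901 in all 16 libraries). In order of group means Cd44 thus ran from MI P56 (24.3 ± 3.4, SD, n = 3) over sham P1 (11.8 ± 4.18, n = 2) and MI P1 (11.7 ± 6.23, n = 4) to sham P56 (3.25 ± 2.09, n = 4). Sham P1 and MI P1 overlapped, as did MI P1 and sham P56.

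Mrc1 had 50.1, 49.5 and 39.0 in MI P56, against 121, 97.0, 76.9 and 66.5 in sham P56. The groups did not overlap, and the library left out of MI P56 was lower still, at 25.9 from 6 reads. Mrc1 was lower by limma, with a log2 difference of -0.92 ± 0.24 (95% interval -1.42 to -0.43, adjusted p = 0.0365). This call was close to the threshold: all 16 libraries gave -1.12 with an adjusted p of 0.329, edgeR -0.96 with 0.0528 and DESeq2 a call at 0.0092 where it called 6.64% of genes. It was also lost without MI P56 library 1 (adjusted p = 0.0666), 2 (0.0741) or 3 (0.193), sham P56 library 1 (0.0936) or MI P1 library 1 (0.0518), while the difference itself stayed between -1.06 and -0.77.

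With infarction at P1 Mrc1 had 41.4, 38.4, 37.9 and 61.9, against 66.5 and 51.4 in the sham P1 libraries tested and 63.0 and 56.5 in those left out. MI P1 library 5 was the high library of its group and overlapped with sham. The log2 difference was -0.40 (95% interval -0.97 to 0.16, adjusted p = 1; -0.42 and 0.556 in all 16 libraries), and the responses at P56 and P1 were not shown to differ (-0.52, 95% interval -1.27 to 0.23, adjusted p = 0.66; -0.71 and 0.594 in all 16 libraries). In sham hearts all P56 libraries lay above both P1 libraries tested, the nearest pair both at 66.5, but the difference of 0.58 (95% interval 0.02 to 1.14) had an adjusted p of 0.171, and 0.338 in all 16 libraries. After MI the ages overlapped, with a log2 difference of 0.06 (95% interval -0.43 to 0.56, adjusted p = 0.934) that was -0.14 in all 16 libraries. The group means ran from sham P56 (90.2 ± 23.9, n = 4) over sham P1 (58.9 ± 10.7, n = 2) and MI P56 (46.2 ± 6.23, n = 3) to MI P1 (44.9 ± 11.4, n = 4), with overlap between neighbours for the last pair only.

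**Figure D3:**
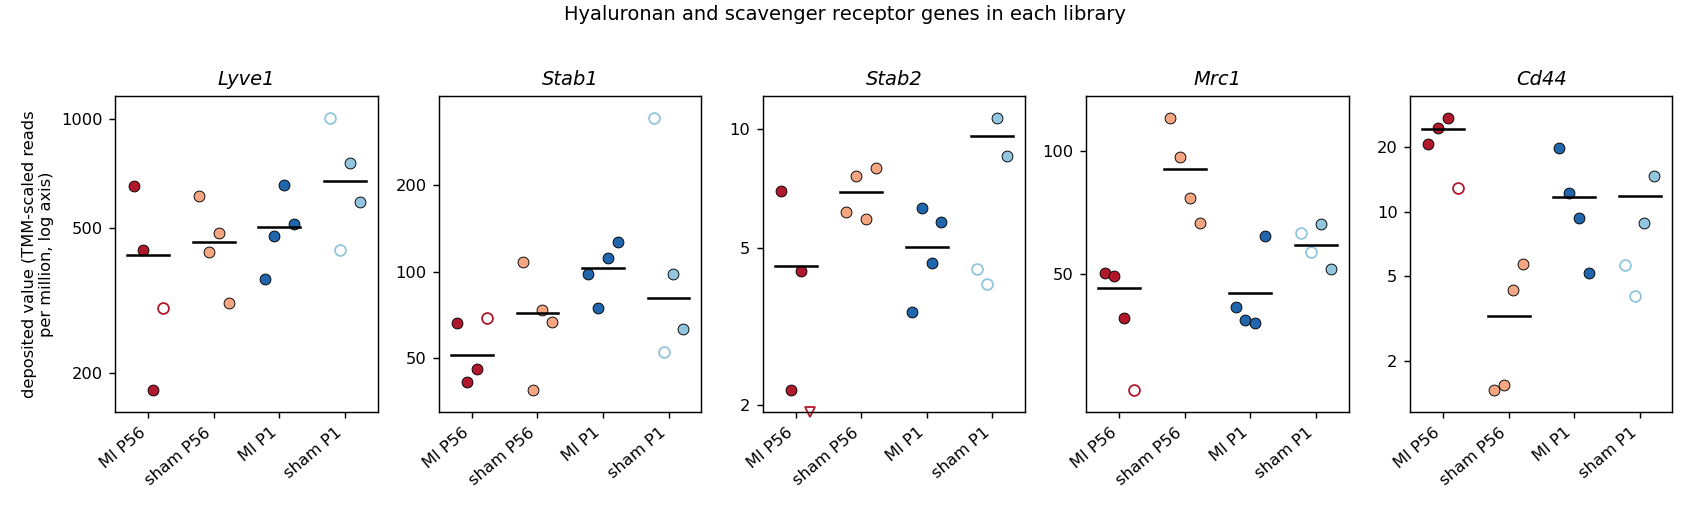
Deposited value of each of the 5 genes (vertical log axes, TMM-scaled CPM) in every library of MI P56, sham P56, MI P1 and sham P1. Filled points are the 13 libraries tested, with their group mean as a bar, open circles are the 3 libraries left out, and the open triangle is a value of 0. Cd44 in MI P56 and Mrc1 in sham P56 do not overlap with their counterparts at that age.

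Lyve1 had 652, 437 and 180 in MI P56, against 612, 431, 485 and 311 in sham P56. MI P56 libraries 1 and 3 held the highest and the lowest values of both groups, so the spread within MI P56 spanned the whole range of sham P56. This gave a log2 difference of -0.27 with a 95% interval of -0.98 to 0.45 (adjusted p = 0.747; -0.34 and 0.898 in all 16 libraries). It turned to 0.26 without MI P56 library 3.

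At P1 Lyve1 had 363, 477, 657 and 515 after MI, against 757 and 591 in the sham libraries tested, while the sham libraries left out had 1003 and 436. The groups overlapped through MI P1 library 3. On the log2 scale MI P1 differed from sham P1 by -0.44 (95% interval -1.25 to 0.37, adjusted p = 1; -0.43 and 0.582 in all 16 libraries). The difference between the responses was 0.18 (95% interval -0.90 to 1.25, adjusted p = 0.943; 0.09 and 0.956 in all 16 libraries). P56 against P1 gave -0.58 (95% interval -1.39 to 0.23, adjusted p = 0.361) in sham and -0.40 (-1.12 to 0.31, adjusted p = 0.595) after MI, and the 16 libraries gave -0.57 (0.39) and -0.48 (0.978). In order of means the groups were sham P1 at 674, MI P1 at 503, sham P56 at 460 and MI P56 at 423, and each overlapped with the next.

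Stab1 had 66.3, 41.4 and 45.8 in MI P56, against 108, 38.6, 73.7 and 67.0 in sham P56. These groups overlapped, with a log2 difference of -0.42 (95% interval -1.03 to 0.19, adjusted p = 0.494; -0.31 and 0.935 in all 16 libraries). At P1 it had 98.1, 74.5, 112 and 127 after MI, against 98.1 and 63.4 in sham. The log2 difference was 0.35 (95% interval -0.34 to 1.04, adjusted p = 1), and -0.03 in all 16 libraries (adjusted p = 0.98), where sham P1 library 1 reached 342 and sham P1 library 2 had 52.5.

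Between ages after MI, all 3 MI P56 libraries lay below all 4 MI P1 libraries in Stab1, with a log2 difference of -0.996 ± 0.293 (95% interval -1.61 to -0.39). The adjusted p of 0.0533 missed the threshold, as did that of all 16 libraries (-0.88, 0.87), while DESeq2 on the recovered reads called it (-1.02, 0.0244) beside 7.86% of genes. Leaving out sham P56 library 1 or 2 or MI P1 library 2 also brought a call, at adjusted p values down to 0.00928. In sham the difference was -0.22 (95% interval -0.92 to 0.47, adjusted p = 0.718; -0.60 and 0.449 in all 16 libraries), and the responses differed by -0.77 (-1.70 to 0.15, adjusted p = 0.563; -0.28 and 0.882). Group means ran from MI P1 at 103 over sham P1 at 80.8 and sham P56 at 71.8 to MI P56 at 51.2, with overlap between each and the next.

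Stab2 had 101 to 505 reads in a library of the 13. It had 6.98, 2.18 and 4.36 in MI P56, against 6.16, 7.61, 5.91 and 7.98 in sham P56. MI P56 libraries 2 and 3 lay below all sham P56 libraries and library 1 lay among them. The log2 difference was -0.61 (95% interval -1.30 to 0.07, adjusted p = 0.355; -1.20 and 0.643 in all 16 libraries, which include MI P56 library 5 with 0 reads).

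At P1 Stab2 had 3.44, 6.30, 4.59 and 5.80 after MI, against 10.7 and 8.55 in the sham libraries tested. Those groups did not overlap, but the sham libraries left out had 4.42 from 37 reads and 4.04 from 1 read, within the range of MI P1. The log2 difference was -0.83 ± 0.37 (95% interval -1.61 to -0.05), with an unadjusted p of 0.0373 and an adjusted p of 1, and all 16 libraries gave -0.33 (adjusted p = 0.78). The responses differed by 0.22 (95% interval -0.82 to 1.26, adjusted p = 0.924), or -0.88 (0.674) in all 16 libraries. The ages differed by -0.42 (-1.20 to 0.35, adjusted p = 0.507) in sham and -0.20 (-0.89 to 0.48, adjusted p = 0.816) after MI, against 0.08 (0.939) and -0.79 (0.974) in all 16. Group means ran from sham P1 at 9.60 over sham P56 at 6.92 and MI P1 at 5.03 to MI P56 at 4.51, and only sham P1 stood clear of the next.

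Ratios within a library do not depend on its scaling. Per length, Cd44 was 1.37%, 2.44% and 6.58% of Lyve1 in MI P56, against 0.103% to 0.786% in sham P56, without overlap. An exact permutation test, two-sided, gave p = 0.0571, the smallest that 3 against 4 libraries allow, and 0.286 after adjustment over the 10 ratios compared. At P1 Cd44 was 0.433% to 2.37% of Lyve1 after MI and 0.503% to 1.07% in sham (exact permutation p = 0.8, adjusted 0.889). Mrc1 was 3.52%, 5.18% and 9.96% of Lyve1 in MI P56, against 7.26% to 10.3% in sham P56, and here the groups overlapped (exact permutation p = 0.229, adjusted 0.457). Cd44 was 38.8% to 66.1% of Mrc1 in MI P56, against 1.14% to 8.04% in sham P56 (exact permutation p = 0.0571, adjusted 0.286). At P1 the smallest p that 4 against 2 libraries allow is 0.133. Stab1 as a percent of Lyve1 (4.43% to 7.66% after MI, 3.04% to 3.68% in sham) reached it. So did Stab2 as a percent of Stab1 (4.12% to 9.93% and 12.8% to 15.8%), each with an adjusted p of 0.333 by that permutation test. In bulk samples such as these, fewer cells of a type and less RNA per cell cannot be told apart.

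Members differed in how they varied together. Across the 13 libraries Cd44 and Mrc1 had a Pearson correlation of -0.87 on the log2(value + 1) scale, and the other 9 pairs ranged from -0.45 (Stab2 and Cd44) to 0.49 (Lyve1 and Stab1). The genes most like each member over these libraries, among 6088 genes with a mean value of at least 5, were Dab2 (0.93), Sema3d (0.83) and Mpp7 (0.81) for Lyve1. Hip1 (0.94), Chd7 (0.93) and Prkag2 (0.93) were nearest to Stab1, and Srek1 (0.81), Gmps (0.76) and Reep1 (0.72) to Stab2. Ubr3 (0.92), the hyaluronan synthase Has3 (0.91) and the cytokine gene Il7 (0.91) were nearest to Mrc1. Il1rl2 (0.98), an interleukin-36 receptor gene, Tpm2 (0.96) and the integrin gene Itga5 (0.93) were nearest to Cd44. The points share libraries, scaling and group differences, so these values describe likeness across the 13 libraries only. Il1rl2, the nearest of all, averaged 10.4 in MI P56, 1.39 in sham P56, 6.03 in MI P1 and 6.04 in sham P1. It was picked for its likeness to Cd44 in these same libraries, so its group means are no separate support.

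Markers of other cell types moved with the Cd44 and Mrc1 differences, and their part in these was not tested. Of 12 macrophage markers 9 were in the table, and their summed value was 17.7 to 94.0 in MI P56, 7.48 to 10.5 in sham P56, 9.10 to 31.2 in MI P1 and 18.04 to 18.37 in sham P1. Adgre1, C1qc and Aif1 were at 0 in at least 1 sham P56 library and none of the 9 was at 0 in all libraries of a group. Among the 6 macrophage markers tested, Cd68 and Itgam (2.99, adjusted p = 0.000455) were higher in MI P56 than in sham P56. All 6 had a positive log2 difference in that comparison, with a list median of 1.75, against 0.01 over all genes. In MI P56 the libraries with macrophage sums of 17.7, 94.0 and 73.3 had Cd44 values of 20.7, 24.8 and 27.4, and every sum lay above those of sham P56. In MI P1 the sums of 28.6, 31.2, 9.10 and 18.4 stood beside Cd44 values of 20.0, 12.3, 9.37 and 5.18. In sham P1 sums of 18.04 and 18.37 stood beside 14.7 and 8.84. The higher sums of sham P1 than of sham P56 do not hold for most of the list. Between sham P56 and sham P1, Cd68 was lower in sham P56 (-3.11). Of the 6 macrophage markers tested, 4 had a positive log2 difference there, 0 of them called, and the list median was 0.42.

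The 6 fibroblast markers summed to 2000 to 4495 in MI P56, 515 to 2377 in sham P56, 865 to 3250 in MI P1 and 1586 to 3621 in sham P1. Col1a1 (3.38, adjusted p = 0.000912) and Col1a2 (2.45, adjusted p = 0.00275), the collagen I genes, were higher in MI P56, and Pdgfra, Dcn, Lum and Tcf21 did not pass. Of the 6 fibroblast markers 5 had a positive log2 difference between MI P56 and sham P56, with a list median of 0.70. The order of the fibroblast sums was that of the Cd44 values within MI P56 (sums of 2000, 3709 and 4495 beside 20.7, 24.8 and 27.4) and within sham P1 (1586 and 3621 beside 8.84 and 14.7). In MI P1 sums of 865, 2220, 2814 and 3250 stood beside Cd44 values of 5.18, 9.37, 20.0 and 12.3, and in sham P56 sums of 515, 959, 1314 and 2377 stood beside 1.46, 5.68, 4.32 and 1.55. The 7 lymphatic markers in the table summed to 802 to 1701 in MI P56, 1431 to 2466 in sham P56, 1189 to 2049 in MI P1 and 1434 to 2203 in sham P1, and 0 of 7 passed between MI P56 and sham P56. All 7 had a negative log2 difference in that comparison, with a list median of -0.33.

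Sums of other lists are given for the P56 groups. The 8 blood endothelial markers summed to 139 to 202 in MI P56 against 290 to 483 in sham P56, and the 6 cardiomyocyte markers to 312 to 540 against 1224 to 2227, with 2 of 8 and 6 of 6 lower. The 6 pericyte and smooth muscle markers summed to 207 to 335 in MI P56 against 448 to 1149 in sham P56, with Abcc9 (-1.79, adjusted p = 0.00451) and Rgs5 (-1.57, adjusted p = 0.0234) lower and Acta2, the smooth muscle actin gene, higher (2.40, adjusted p = 0.00494). Markers of resident macrophages, cells that are known to express Mrc1, summed to 20.9 to 36.5 in MI P56 against 30.2 to 41.5 in sham P56, with overlap (4 of 6 in the table, 0 of 3 tested called). Among the 3 tested, Gas6 had a log2 difference of -0.61, F13a1 of 0.43 and Cbr2 of 0.20, and Cd163, in the table but not tested, averaged 1.41 ± 0.42 in MI P56 and 0.501 ± 0.319 in sham P56. Scaling each library to Prox1, Flt4, Mmrn1 and Reln moved the median of all genes by 0.69 log2 units for MI P56 against sham P56. On that scale Cd44 kept its call, and Mrc1 had a difference of -0.24 with an adjusted p of 0.608, still below the shifted median. Lyve1, Stab1 and Stab2 turned to 0.41, 0.26 and 0.06 and did not pass.

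**Figure D4:**
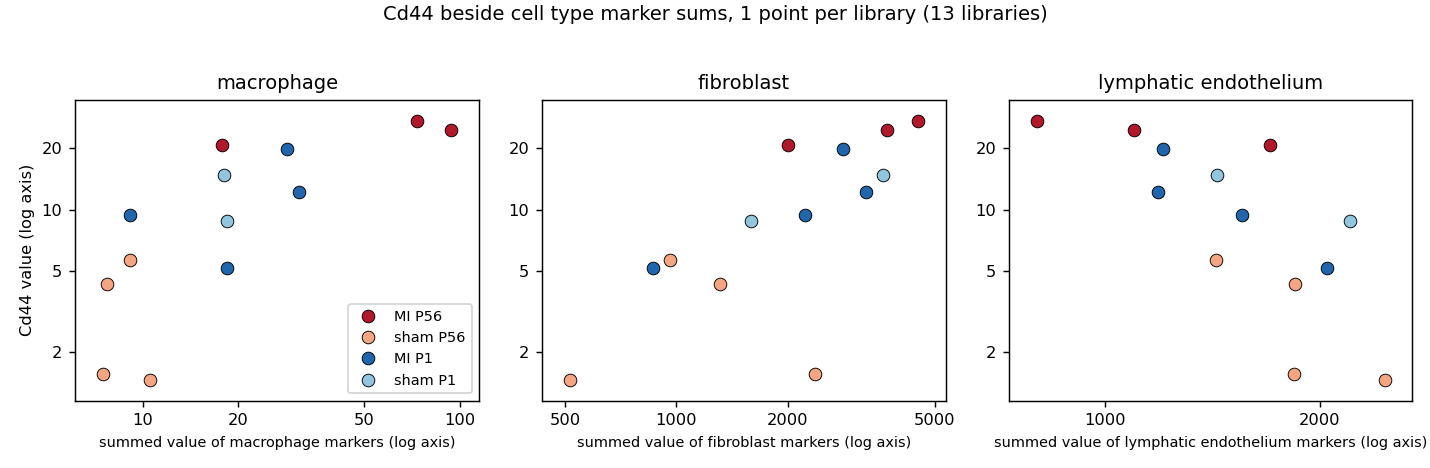
Cd44 value (vertical log axis) against the summed value of macrophage, fibroblast or lymphatic endothelial markers (horizontal log axes), 1 point per library of the 13. The MI P56 libraries have the highest Cd44 values, at 20.7 to 27.4, and their macrophage sums, at 17.7 to 94.0, all lie above those of sham P56.

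The other genes of hyaluronan turnover, scavenging and the receptors' ligands came to 70 tested genes in 5 lists. In MI P56 against sham P56, 10 were higher and 1 was lower, where 2.36% of all genes tested were higher and 1.07% lower. In all 16 libraries 1 was higher (Spp1) and 0 were lower. Of 10 genes of hyaluronan synthesis, Gfpt1, which opens the hexosamine pathway to the sugar precursors, was higher (39.8 ± 8.14 in MI P56, 15.8 ± 5.31 in sham P56, SD, n = 3 and 4, log2 difference 1.32 ± 0.26, adjusted p = 0.00636). The median difference of this list was 0.54, against 0.01 over all genes. Of 7 genes of breakdown, Cemip, which depolymerises hyaluronan, was higher (3.50 ± 1.38 in MI P56, 0.277 ± 0.364 in sham P56; 1.81 ± 0.37, adjusted p = 0.00795), and the list's median was 0.65.

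Among 11 hyaluronan-binding proteins and receptors the median was 0.58 and 2 were higher in MI P56. Vcan, the matrix proteoglycan versican, averaged 451 ± 111 in MI P56 and 142 ± 87.8 in sham P56 (1.85 ± 0.41, adjusted p = 0.0149). Hmmr, a hyaluronan-binding protein that also acts on the mitotic spindle, averaged 10.8 ± 6.68 and 2.23 ± 2.42 in these groups (2.04 ± 0.49, adjusted p = 0.0257). Among 23 other scavenger and endocytic receptors the median was -0.07, with 4 higher and 1 lower. Msr1, the class A macrophage scavenger receptor, averaged 9.30 ± 4.37 in MI P56 and 0.623 ± 0.408 in sham P56 (2.59 ± 0.43, adjusted p = 0.00209). Cd68, which is also one of the macrophage markers above, averaged 5.82 ± 2.55 and 0.766 ± 1.02 (2.03 ± 0.39, adjusted p = 0.00552). Cd36, the fatty acid and thrombospondin receptor of microvessels and macrophages, was lower at 80.0 ± 57.5 in MI P56 against 195 ± 78.8 in sham P56 (-1.41 ± 0.37, adjusted p = 0.0406).

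The 19 ligands, proteases and cytoplasmic partners had a median of -0.16, and 2 were higher in MI P56. Spp1, which encodes the CD44 ligand osteopontin, averaged 27.6 ± 3.94 in MI P56 and 0.231 ± 0.248 in sham P56 (4.55 ± 0.54, adjusted p = 8.27e-05), and it was called in all 16 libraries too (4.59, adjusted p = 0.00168). Sparc, which encodes the stabilin-1 ligand, averaged 1238 ± 471 in MI P56 and 438 ± 185 in sham P56 (1.52 ± 0.36, adjusted p = 0.022). Of the genes named for this comparison, Cemip, Gfpt1 and Vcan lost their calls without MI P56 library 3 (adjusted p of 0.075, 0.0708 and 0.108). Hmmr lost it without any of MI P56 libraries 1 and 3 and sham P56 libraries 3 and 5 (up to 0.193), and Sparc without any of MI P56 libraries 2 and 3 and sham P56 libraries 1 and 3 (up to 0.16). Cd36 lost it without any of 8 libraries (up to 0.24) and kept it without MI P56 library 2, sham P56 library 1 or 3 and MI P1 library 1 or 5. In all 16 libraries Msr1 had an adjusted p of 0.0526, and the named genes other than Spp1 had 0.313 to 0.593. At P1 0 of the 70 passed, with medians of -0.31, 0.37, -0.26, 0.18 and 0.02 in the 5 lists in the order above. The responses at the 2 ages differed for 2 of the 70, both larger at P56, where 0.483% of all genes passed. The response of Cd68 differed between the ages by 3.10 ± 0.60 (adjusted p = 0.0305), with a Cd68 value of 5.59 ± 1.03 in MI P1 and 12.8 ± 1.41 in sham P1. The call of Cd68 was lost in all 16 libraries (1.81, adjusted p = 0.53) and without any of MI P56 libraries 2 and 3, sham P56 library 5, MI P1 libraries 1 and 3 and both sham P1 libraries (adjusted p up to 0.244). Megf10, an engulfment receptor gene of the scavenger list that was named after its values were seen, differed by 2.69 ± 0.58 (adjusted p = 0.047), with 8.71 ± 3.17 in MI P56, 1.77 ± 0.69 in sham P56, 2.07 ± 1.64 in MI P1 and 4.26 ± 0.27 in sham P1. Its call was kept on leaving out MI P56, sham P56 or MI P1 library 2 and lost on leaving out any other 1 of the 13 (adjusted p up to 0.411), and in all 16 libraries 0 of the 70 passed. Markers of other cell types moved with the difference between the responses too, and their part was not tested. It was negative and called for 3 of 6 cardiomyocyte (median -2.44), 1 of 8 blood endothelial (-2.05) and 1 of 6 pericyte and smooth muscle markers (-0.55). Of the macrophage markers 1 of 6 was called positive (Cd68, list median 0.95). The difference was positive for 6 of 6 fibroblast (1.73) and 0 of 4 mesothelial markers (-1.47), with 0 called.

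Between sham P56 and sham P1, 2 of the 70 were higher and 10 were lower, where 13.2% of all genes passed (5.89% higher, 7.28% lower). Markers of other cell types moved with this comparison too, and their part was not tested. Higher in sham P56 were 6 of 6 cardiomyocyte (median log2 difference 2.73), 6 of 8 blood endothelial (2.02) and 3 of 6 pericyte and smooth muscle markers (1.5). The resident macrophage list had 1 of 3 higher (0.76). Lower were 2 of 6 fibroblast markers (-1.20), 1 of 6 macrophage markers (Cd68, list median 0.42) and Cd3e (-3.06). Cd3e was the 1 granulocyte and lymphocyte marker tested. The hyaluronan synthases Has1 (1.17 ± 0.520 in sham P56, 5.38 ± 1.52 in sham P1; -1.57 ± 0.39, adjusted p = 0.0097) and Has2 (2.40 ± 1.35 and 10.6 ± 3.92; -1.82 ± 0.49, adjusted p = 0.0172) were lower. So was Ugdh, which makes the glucuronic acid precursor, at 23.3 ± 15.3 in sham P56 and 86.0 ± 16.2 in sham P1 (-2.02 ± 0.39, adjusted p = 0.00143). The median of the synthesis list was -0.63 and that of the hyaluronan-binding list -0.71, against 0.00 over all genes. Of the hyaluronan-binding genes 4 were lower, among them Hapln1, which links hyaluronan to proteoglycans (1.89 ± 0.653 in sham P56, 12.0 ± 1.4 in sham P1; -2.19 ± 0.37, adjusted p = 0.000545), and Ptx3, which helps to crosslink hyaluronan (7.74 ± 1.60 and 43.8 ± 5.50; -2.37 ± 0.35, adjusted p = 0.00016). Hmmr (-2.78, adjusted p = 0.00219) and Vcan (-1.54, adjusted p = 0.0331) were the other 2.

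Of the scavenger receptors, Cd36 was higher in sham P56 (2.57 ± 0.42, adjusted p = 0.000397), and Cd68 (-3.11, adjusted p = 0.000125) and Olr1, the oxidised lipoprotein receptor (-2.03, adjusted p = 0.0109), were lower. Ank3, an ankyrin of the family that binds the CD44 tail, was higher (1.58 ± 0.38, adjusted p = 0.00836). In all 16 libraries Ugdh, Hapln1 and Ptx3 kept their calls (adjusted p of 0.0129, 0.0219 and 0.0145), and the other genes named for this comparison did not. Without sham P1 library 3, Has1 (adjusted p = 0.142) and Ank3 (0.126) lost their calls, without either library 3 or library 5 Has2 (up to 0.246) and Olr1 (up to 0.111) did, and without library 5 Hmmr (0.0548) did. Vcan lost it without sham P1 library 5 or sham P56 library 1 or 5 (up to 0.436).

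After MI 6 of 70 were higher at P56 and 5 were lower, where 5.35% of all genes passed (2.09% higher, 3.26% lower). Of the cell type markers, 1 of 6 macrophage and 1 of 6 cardiomyocyte markers were higher. Lower were 1 of 4 mesothelial markers and Cd3e, the 1 granulocyte and lymphocyte marker tested. Of the mesothelial markers 0 of 4 had a positive log2 difference. In the fibroblast (0 of 6), blood endothelial (0 of 8) and pericyte and smooth muscle lists (0 of 6) no marker passed. The part of other cell types in this comparison was not tested. Hapln1 had the lowest adjusted p of the genes named, at 1.08 ± 0.860 in MI P56 against 12.0 ± 1.37 in MI P1 (-2.71 ± 0.33, adjusted p = 6e-05). Ptx3 (-1.34, adjusted p = 0.0142) and Olr1 (-2.01, adjusted p = 0.0114) were also lower, and Msr1 (1.76, adjusted p = 0.0204) and Fgf2, a growth factor that heparan sulfate forms of CD44 can carry (1.18, adjusted p = 0.0148), were higher. Leaving out 1 library ended the calls of Fgf2 (MI P56 library 1 or 3, adjusted p up to 0.0593), Olr1 (MI P56 library 1, 0.0759), Ptx3 (MI P56 library 2 or 3 or MI P1 library 3, up to 0.089) and Msr1 (MI P56 library 2 or 3 or MI P1 library 3 or 5, up to 0.106). In all 16 libraries 0 of 70 passed.

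**Figure D5:**
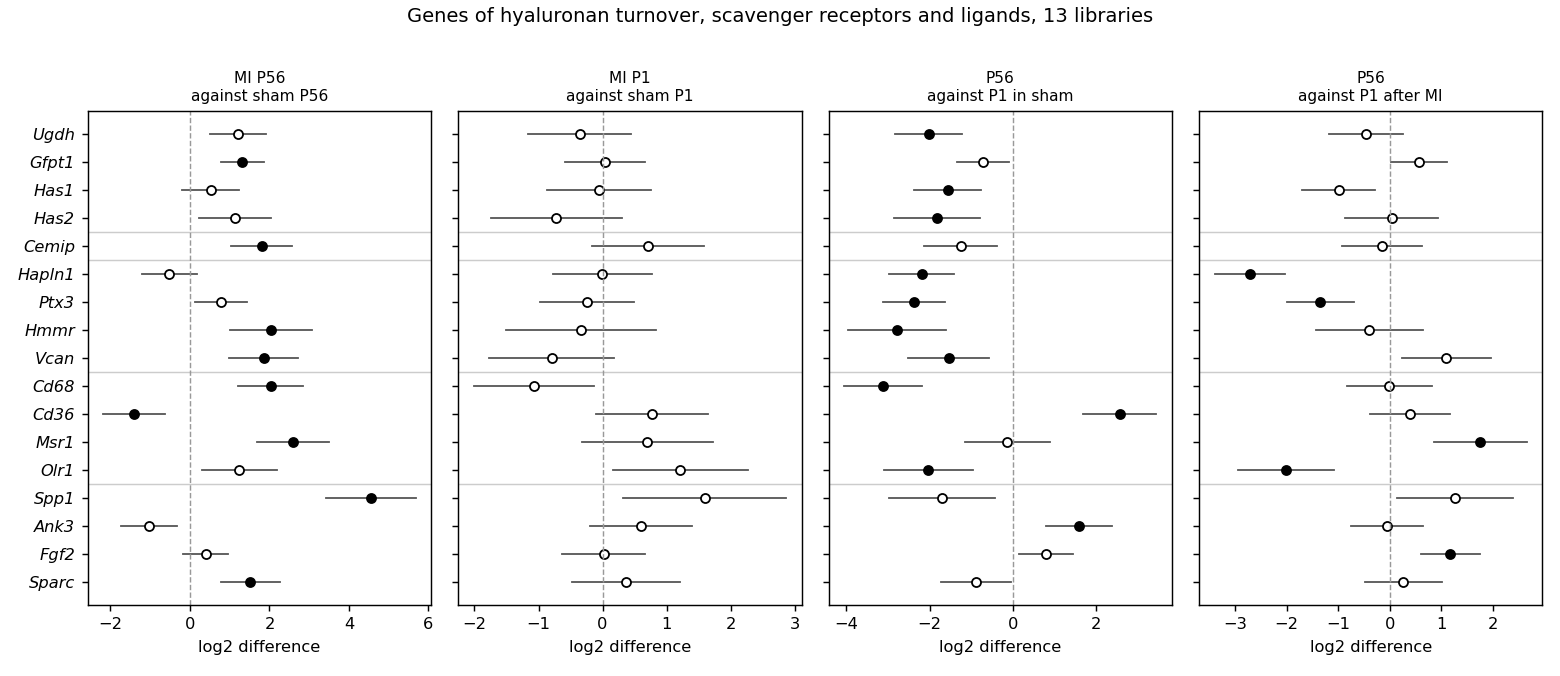
Fitted log2 differences (horizontal axes) with 95% intervals for 17 named genes of the 5 lists in 4 comparisons of the 13 libraries. Filled circles passed an adjusted p of 0.05, open circles did not, and grey lines part the lists. Spp1 is farthest to the right in the MI P56 panel, at 4.55, and no circle is filled in the MI P1 panel.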

How the data were processed

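The authors deposited 1 table of 15895 genes by 16 libraries, which they named CPM and whose unit is signal: dividing a column by 1 constant returned whole read counts (100% of values within 0.01 read), as edgeR CPM with TMM scaling does. The submitters' processing notes name mm10 (GRCm38) and the tools STAR, Trimmomatic, edgeR and HTSeq, and their order and versions are not given in the sources used here. The columns of each group are numbered 1, 2, 3 and 5 and the labels 1 to 4, so groups were taken from the column names. The design assumed plain per-million values, and the tests were kept.

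Genes that reached a value of 1 in 4 or more libraries were transformed as log2(value + 1), which understates changes of low genes, and fitted for 4 groups with limma-trend (limma 3.58.1, R 4.3.3) in the 13 libraries with reads on at least 10000 genes, with Benjamini-Hochberg adjustment over all genes tested. A gene was called at an adjusted p under 0.05. Alternatives were all 16 libraries, filters, pseudocounts, rescalings, a fit of the groups compared, a replicate block, weights, each library left out, and edgeR 4.0.16 or DESeq2 1.42.0 on the recovered read counts. The fit was also run on simulated counts, drawn gene by gene without differences in cell content between libraries. That run does not show how the fit behaves under such differences. Besides the 5 members, up to 4 genes per list were named, those with the smallest adjusted p among called genes, and the 3 genes nearest to each member. Megf10 was named after its values were seen, and Mrc2 and the other called genes of the lists are counted but not described. The members, the lists and the choice of 13 libraries were made with earlier results of these data known.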

Additional observations from a re-analysis of the deposited data

Results flagged for a closer look

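The response of Cd44 to infarction differed between ages by a test of the difference itself, 2.81 log2 units larger at P56 than at P1 (adjusted p = 0.047 by limma). The responses of Cd68 (3.10, adjusted p = 0.0305), which is also a macrophage marker, and of Megf10 (2.69, adjusted p = 0.047) differed likewise. Cd68 and Megf10 were 2 of 70 listed genes tested, and all 3 calls were lost in the 16 libraries. Markers of other cell types moved with the difference between the responses as well, and their part was not tested.

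Stab1 in sham P1 library 1 stood far from the other 3 sham P1 libraries, at 342 against 52.5 to 98.1, and this library is one of the 3 left out of the tests. Mrc1 in MI P1 library 5 stood apart from the other 3 libraries of its group, at 61.9 against 37.9 to 41.4. These were 2 of 54 groups of libraries examined for an outlying library, and chance alone gives about 1 in 20.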

How the results depend on the processing

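The call of Cd44 in MI P56 against sham P56 held under the other filters, pseudocounts, rescalings, fits and tools tried with 13 libraries. In all 16 libraries it was missed (2.49, adjusted p = 0.0526), as were those of Mrc1 in that comparison (-1.12), Cd44 for the difference between ages in response (2.04) and Cd44 for age in sham (-1.13). Signs turned there for Stab1 and Cd44 in MI P1 against sham P1 (-0.030 and 0.45), Stab2 for the difference (-0.88) and for age in sham (0.083), and Mrc1 for age after MI (-0.14). None of the values whose sign turned passed, and the cause was not tested. Genes called numbered 23, 0, 1, 518 and 14 in all 16 libraries, against 446, 0, 63, 1716 and 697 in 13, for MI at P56, MI at P1, the difference, age in sham and age after MI. Only 2 sham P1 libraries and 3 MI P56 libraries remain in the 13, which limits what the tests can call.

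With 13 libraries, the Mrc1 call was missed in a fit of only the groups compared (-0.92), with edgeR (-0.96) and after scaling to lymphatic genes (-0.24). The Cd44 call for the difference was missed without a filter (2.81), with pseudocounts of 0.25 (3.13) and 4 (2.07), with edgeR (2.95) and after scaling to lymphatic genes (3.24). For age in sham it was missed in the fit of only the groups compared (-1.69) and after scaling to lymphatic genes (-1.70). For age after MI, Stab1 gained a call with the stricter filter (-0.996), median-of-ratios rescaling (-1.01), the groups compared (-0.996), weights per library (-0.97) and DESeq2 (-1.02), and Cd44 gained one with the groups compared (1.12). Scaling to lymphatic genes turned Lyve1 (0.41), Stab1 (0.26) and Stab2 (0.06) in MI P56 against sham P56, Cd44 in MI P1 against sham P1 (0.14), and Lyve1 (0.017) and Stab2 (0.22) for age after MI, as it moved the median of all genes by 0.69, 0.26 and 0.43 in these comparisons. It moved that of the difference by 0.43. Weights per library turned Cd44 in MI P1 against sham P1 (0.088).

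The number of genes called for MI at P56 was 153 with the groups compared, 768 with weights and 866 with DESeq2. At P1 it was 1 with the stricter filter, 2 with pseudocount 0.25 and with quantile normalization, 8 with the groups compared and with weights, and 7 with DESeq2. For the difference it was 34 with pseudocount 4, 317 with weights and 324 with DESeq2. It was 728 and 2766 for age in sham and 1136 and 1365 for age after MI with the groups compared and with weights.

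Deviations from group means had r from -0.32 to 0.14 in 15 pairs of same-numbered columns (1 over 0.1). In 47 pairs of differently numbered columns r was -0.15 to 0.32 (10 over 0.1). With 2 sham P1 libraries in the fit, the deviations of 1 mirror those of the other. These values therefore cannot decide whether the number pairs samples. With the replicate number as a block, the calls of Mrc1 in MI P56 (-0.94, adjusted p = 0.065), Cd44 for the difference (2.77, 0.102) and Cd44 for age in sham (-1.61, 0.0626) were missed, Stab1 for age after MI gained one (-0.99, 0.0367), and 8 genes were called for the difference.

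Leaving out each library gave ranges of -1.06 to -0.77 for Mrc1 and -0.67 to 0.26 for Lyve1 in MI P56, and -0.45 to 0.23 for Cd44 in MI P1. For the difference they were 2.47 to 3.15 for Cd44, -0.23 to 0.70 for Lyve1 and -0.10 to 0.57 for Stab2, and for age in sham -2.03 to -1.35 for Cd44 and -0.53 to 0.087 for Stab1. For age after MI they were -0.81 to 0.12 for Lyve1, -0.0085 to 0.22 for Mrc1, -1.19 to -0.86 for Stab1 and -0.52 to 0.14 for Stab2. Genes called ranged over 143 to 645, 0 to 2, 1 to 228, 644 to 2270 and 317 to 1344 in the 5 comparisons.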
